A study of Mus musculus with 24 samples.

Results

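Whole blood of 10 male 129S/J mice that lack Parp1 is described here, 5 mice 24 h after 6 Gy of X-rays and 5 sham-exposed mice at 0 Gy, out of 24 mice in the study. The genotype label of all 10 is Parp1-/-, with no further name for the allele, and all 10 share the strain and the sex. Members were chosen by their titles and not by measured values: Parp1-KO_6Gy (n = 5) against Parp1-KO_0Gy (n = 5), with 1 mouse for each array. The other 14 arrays are of Wild Type mice of the same strain and sex, sham-exposed (n = 5) or given 6 Gy (n = 5) or 8.8 Gy (n = 4), and 6 Gy is the knockout dose and 8.8 Gy the wild-type dose that the design gives as the LD50/30. Blood was drawn from the heart at death into an RNA stabiliser, globin RNA was reduced, and Cy3-labelled RNA was hybridised to 1-colour Agilent mouse arrays. The sources used here do not state the age of the mice.

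PARP1 is a nuclear enzyme that binds DNA breaks and builds chains of ADP-ribose from NAD, which draw repair proteins to the break. Ionising radiation breaks DNA strands, and blood cells answer through p53, a transcription factor that switches on genes of cell-cycle arrest and of cell death. Lymphocytes are among the most radiosensitive cells of the body, whereas neutrophils, platelets and red cells no longer divide and depend on the marrow for renewal. Interferon-stimulated genes are switched on by a complex of STAT proteins with IRF9, which binds a short element (ISRE) near their start sites.

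Expression levels are log2 processed signals with the 75th percentile of the array at 0, so a level of 1 lies 1 log2 unit above that percentile, and levels of different probes are not compared. A gene is called where limma's adjusted p is under 0.05 over the 13887 gene names tested. A name was tested if its brightest probe was well above background on 4 or more arrays of either group.

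The array labelled knockout 6 Gy replicate 1 stood apart. It nearly equalled the array of wild-type 8.8 Gy replicate 2 (SD of the log2 difference 0.167 over 10767 probes, against a median of 0.735 for pairs within groups), and knockout 0 Gy replicates 4 and 5 were the next closest pair (0.262). The Parp1 probe was well above background on that array (level -1.67) and on no other array labelled knockout, where it lay at -3.45, -5.01, -3.82 and -4.67 at 6 Gy and at -2.29, -2.81, -3.82, -2.90 and -3.16 at 0 Gy; wild-type arrays lay between -0.94 and -0.35 at 0 Gy, between -2.33 and -1.27 at 6 Gy and between -3.95 and -1.25 at 8.8 Gy, and 3 of the irradiated wild-type arrays were not well above background either. The sources used here do not say whether this probe lies in the deleted part, and outside it the probe would check nothing. Siglecf, a receptor of eosinophils, gave 0.59 on the same array, against -2.70, -2.28, -2.13 and -1.09 on the other 6 Gy arrays and -3.17 to -1.78 at 0 Gy. Results are therefore given with and without the array labelled knockout 6 Gy replicate 1.

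Other array facts move with the groups. At 6 Gy 47.9% ± 3.9 (SD, n = 5) of the probes were well above background, and at 0 Gy 39.4% ± 2.42 (SD, n = 5), with no overlap (two-sided exact permutation p = 0.00794, the smallest that 5 against 5 can give; adjusted p = 0.0317 over 8 array measures). The mean level of probes never well above background was -4.6 ± 0.43 at 6 Gy and -3.82 ± 0.332 at 0 Gy (exact permutation p = 0.00794, adjusted p = 0.0317). The spike-in control E1A_r60_1 read 531, 732 and 772 units on knockout 6 Gy replicates 2, 3 and 4, and 310000 to 540000 units on every other array. Fits without these 3 arrays keep only replicates 1 and 5 of the irradiated knockout group, and replicate 1 is the array that stood apart. In those fits the loss of arrays and the missing signal cannot be told apart. Slide 9 is the only slide with both groups (6 Gy replicate 5; 0 Gy replicates 1 and 2), and otherwise slide and scan day cannot be told apart from the dose. Liver transcripts varied within both groups: the mean level of 25 hepatocyte markers was 5.29, -2.47, 6.30, 5.44 and -1.77 on the 6 Gy arrays and 6.80, -1.22, 1.24, -2.11 and -2.11 on the 0 Gy arrays, with all 25 well above background on 4 of the 10. Of 20 heart-muscle markers, 17 were well above background on knockout 6 Gy replicate 3 and at most 9 on any other knockout array. The 13 markers of leukocytes at large, which check the label of the tissue, were well above background on all 10 arrays, with mean levels of 3.97 ± 0.343 at 6 Gy and 3.75 ± 0.428 at 0 Gy (exact permutation p = 0.397). The part of these measures in the results was not tested.

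**Figure D1:**
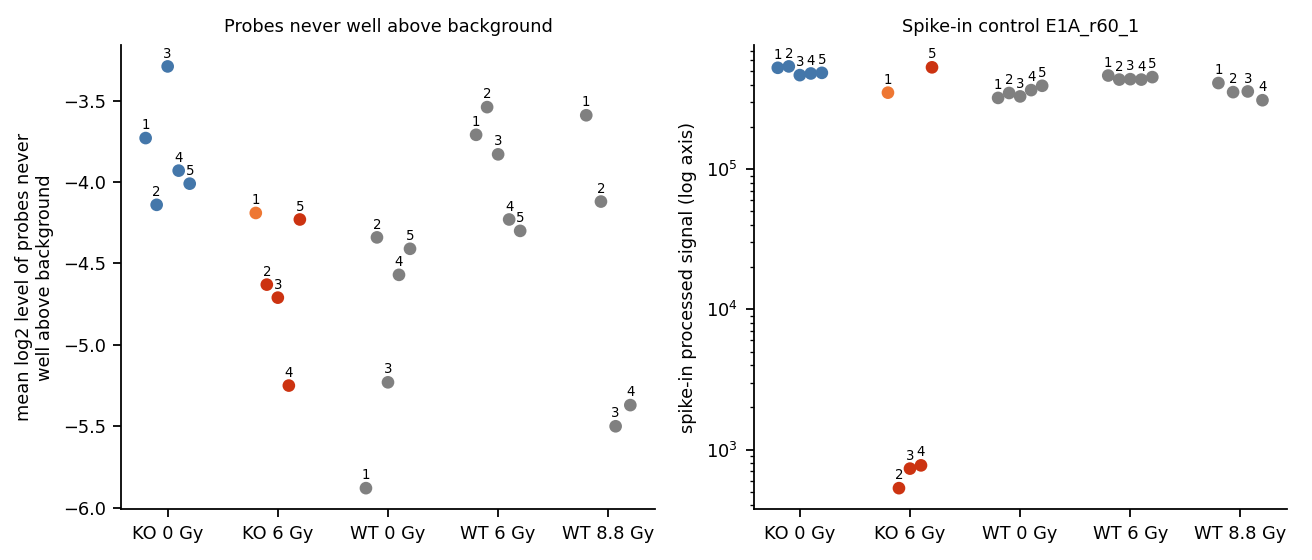
Mean log2 level of the probes that were never well above background (left) and processed signal of spike-in control E1A_r60_1 on a log axis (right), 1 point per array with its replicate number, for the 5 groups (KO, knockout; WT, wild type). Knockout 6 Gy arrays lie between -5.25 and -4.19 and knockout 0 Gy arrays between -4.14 and -3.29 on the left, and knockout 6 Gy replicates 2, 3 and 4 lie between 531 and 772 units on the right.

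The response to 6 Gy in knockout blood was broad. Genes of p53, interferon, platelets, neutrophils and phagocytes were among those that rose, and genes of B cells, T cells and maturing red cells were among those that fell. Of the 13887 genes tested 3678 were called (26.5%), 1792 higher (12.9%) and 1886 lower (13.6%), and the median difference of all genes tested was -0.11 on the log2 scale. Without the array labelled knockout 6 Gy replicate 1, 3138 were called (22.6%), 1625 higher (11.7%) and 1513 lower (10.9%), and 3028 genes were called in both with the same sign. The groups did not overlap for 9.53% of genes in the higher direction and 7.39% in the lower, or 10.6% and 7.99% without that array. With the authors' deposited table in place of the scanner values, 64.3% of calls were higher, against 48.7%. That table covered 8494 of the 13887 genes, so the gene set differs as well as the values. Of the genes called higher, 35.9% were not well above background on every 0 Gy array, against 28.5% of all genes tested. Without the 3 arrays that lack the spike-in signal, which keeps only replicates 1 and 5 at 6 Gy, 1900 genes were called. Far fewer were called with the slide as a block, which leaves only slide 9 to compare the groups.

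Among the list medians, those of B cells, red-cell membrane, reticulocyte and T cell genes were the lowest, and those of tissue macrophages, liver, antiviral, acute-phase and p53 genes the highest. Within slide 9 the liver list changed sign, from 1.85 to -3.61, and the tissue macrophage list went from 2.33 to 0.61. Under the normexp background correction the medians of the p53 arrest, p53 death, antiviral and B cell lists were nearer to 0, with 0.58, 0.78, 0.98 and -1.20 in place of 1.31, 1.36, 1.67 and -2.10. Because these are bulk samples, fewer cells of a type and less RNA per cell cannot be told apart in any of the changes below. Each list count below is to be read against the 12.9% of all genes tested that rose and the 13.6% that fell.

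**Figure D2:**
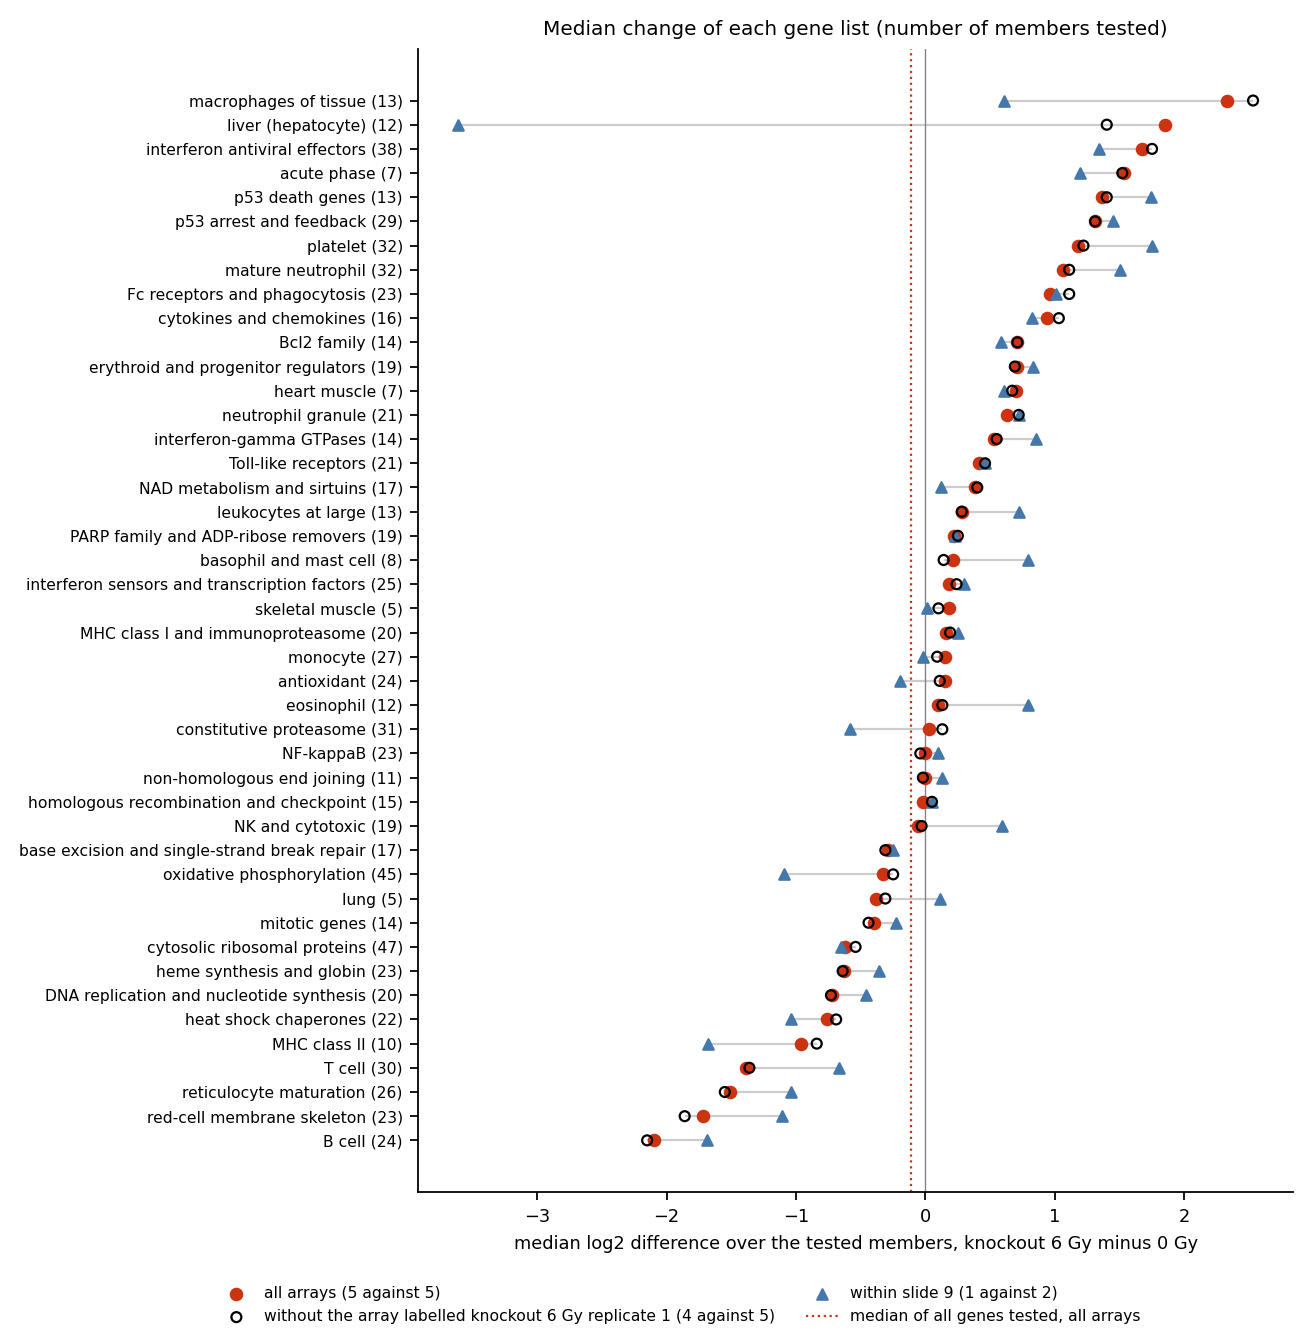
Median log2 difference (knockout 6 Gy minus 0 Gy) over the tested members of each gene list, with all arrays (red), without the array labelled knockout 6 Gy replicate 1 (open circles) and within slide 9 (triangles, 1 array against 2). The dotted line marks the median of all genes tested, -0.11; with all arrays B cell genes lie lowest with -2.10, and antiviral genes lie at 1.67 with all arrays and at 1.34 within slide 9.

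Genes of the p53 programme rose. The list of arrest and feedback genes had 29 tested members of 32, of which 16 rose and 0 fell, and the list of p53 death genes had 13 tested members of 15, of which 9 rose and 0 fell (12.9% of all genes tested rose). Their medians were 1.31 and 1.36, and the same counts rose without the array labelled knockout 6 Gy replicate 1. Of the 32 arrest genes, 18 to 22 were well above background on the 0 Gy arrays and 28 to 30 on the 6 Gy arrays. Some, Cdkn1a among them, were thus tested only through the irradiated group. Without the 3 arrays that lack the spike-in signal 13 and 9 rose. The promoter sequences printed here show where the p53 half-site, a 10-base motif, stood in 4 of these genes. Half-sites are in capitals, and each window, from RefSeq for build GRCm38.p6, is given on the gene's strand and lies wholly before the start site.

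Cdkn1a: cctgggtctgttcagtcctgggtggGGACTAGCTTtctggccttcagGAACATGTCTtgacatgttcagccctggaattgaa
Ccng1: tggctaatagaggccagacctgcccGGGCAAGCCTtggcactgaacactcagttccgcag
Mdm2: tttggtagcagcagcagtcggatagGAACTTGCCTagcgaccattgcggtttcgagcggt
Bax: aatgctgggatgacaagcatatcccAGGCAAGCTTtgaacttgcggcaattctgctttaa

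The windows are chr17:29090881-29090962 (plus strand) for Cdkn1a, chr11:40755437-40755496 (minus strand) for Ccng1, chr10:117710910-117710969 (minus strand) for Mdm2 and chr7:45467065-45467124 (minus strand) for Bax. Capitals begin at base -73 and -51 from the start site in Cdkn1a, -185 in Ccng1, -186 in Mdm2 and -201 in Bax. The search read 250 bases before to 50 after each start site on both strands, with overlapping matches counted. A half-site was found for 9.55% of all 27025 genes with a window and 8.64% of the 8815 tested genes with one. It was found for 10 of the 24 tested arrest genes with a window (41.7%), for 8 of the 13 that rose (61.5%), and for 3 of the 9 tested death genes with a window (33.3%). A match is a description of letters and not of binding.

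Cdkn1a encodes p21, the inhibitor of cyclin-dependent kinases that halts the cell cycle. Its probe (chr17:29237377-29237436 in mm9, the build of the array files) gave 1.62, 1.73, 1.23, 2.04 and 1.35 at 6 Gy and -2.23, -2.34, -2.79, -2.78 and -2.72 at 0 Gy. All 5 irradiated arrays lay far above all 5 sham arrays, and the probe was not well above background on any sham array. Where no array of a group reached that level, only a lower limit of the fold is printed: the mean of the bright arrays is set against a floor averaged over the dim arrays, which on each is either the dimmest signal that still passed as well above background or, if brighter, the reading of the probe itself. The adjusted p beside a limit is limma's for the measured levels, dim readings included, and not for the limit. Probes never well above background had mean levels of -4.6 at 6 Gy and -3.82 at 0 Gy. The part of this background difference in these adjusted p was not tested. Cdkn1a was at least 12-fold higher (adjusted p = 1.61e-08), and at least 11.9-fold higher without the array labelled knockout 6 Gy replicate 1 (adjusted p = 1.73e-07).

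Phlda3, which restrains AKT, gave 4.43, 4.81, 4.22, 4.21 and 4.73 at 6 Gy and 1.45, 1.23, 1.92, 1.68 and 1.40 at 0 Gy. The groups were wide apart (log2 difference 2.95, SE 0.28, adjusted p = 4.38e-07). Ccng1, cyclin G1, which recruits a phosphatase to Mdm2, gave 2.57, 2.77, 2.72, 2.56 and 3.03 at 6 Gy and -0.03, 0.45, -0.57, 0.81 and 0.62 at 0 Gy (log2 difference 2.47, SE 0.25, adjusted p = 8.67e-07), again without overlap. Plk2, a kinase of the polo family, had 6 Gy levels of -1.45 to -0.78 and was at least 1.96-fold higher (adjusted p = 3.46e-07), with sham levels of -3.93 to -3.26, none of them well above background. Mdm2, the ubiquitin ligase that removes p53, was picked for its sequence after its values were seen and rose from 2.38 ± 0.29 to 4.04 ± 0.36 (SD, n = 5 each; log2 difference 1.66, SE 0.22, adjusted p = 2.37e-05).

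Among the death genes, Aen, a nuclease, gave 3.08, 3.48, 3.39, 3.39 and 3.26 at 6 Gy and 1.55, 0.87, 0.13, 1.25 and 1.28 at 0 Gy. The irradiated arrays lay within 0.16 (SD) of their mean and above every sham array (log2 difference 2.30, SE 0.24, adjusted p = 1.68e-06). Bax, which opens the outer mitochondrial membrane, gave 3.52, 3.89, 3.53, 3.81 and 4.16 at 6 Gy and 1.71, 1.89, 1.37, 1.99 and 2.10 at 0 Gy, with no overlap (log2 difference 1.97, SE 0.22, adjusted p = 2.81e-06). The death receptor gene Tnfrsf10b was at least 3.74-fold higher (6 Gy levels -0.34 to 0.37, 0 Gy levels -3.07 to -1.57, none of the latter well above background; adjusted p = 7.31e-06). Fas, the other death receptor, rose from 0.73 ± 0.17 to 2.09 ± 0.27 (log2 difference 1.36, SE 0.20, adjusted p = 6.09e-05).

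The Bcl2 family, which sets the threshold for mitochondrial death, had calls in both directions. Of 14 tested members 5 rose and 2 fell, with and without the array labelled knockout 6 Gy replicate 1 (12.9% of all genes tested rose and 13.6% fell). Bbc3, the activator PUMA, rose by 1.92 log2 units (SE 0.41, adjusted p = 0.00185), and Bad, which frees death effectors, rose by 0.73 (SE 0.17, adjusted p = 0.00381). Bcl2l1, the survival gene Bcl-xL that maturing red cells also express strongly, gave 8.29, 8.46, 7.69, 7.83 and 7.65 at 6 Gy and 9.34, 9.13, 11.45, 10.16 and 9.94 at 0 Gy. Every irradiated array lay below every sham array (log2 difference -2.02, SE 0.41, adjusted p = 0.00119), and the spread was wider at 0 Gy, where replicate 3 was highest.

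Most of the tested interferon-stimulated antiviral genes rose. Of 45 listed genes 38 were tested, 27 rose and 1, Rsad2, fell (log2 difference -2.45, adjusted p = 0.0335), against a background of 12.9% higher and 13.6% lower. The list median was 1.67, and 27 rose and 1 fell without the array labelled knockout 6 Gy replicate 1. Of the 45 genes, 25 to 29 were well above background on the 0 Gy arrays and 38 to 42 on the 6 Gy arrays. Some members, Oas2 among them, were thus tested only through the irradiated group, which favours rises in this count. Without the 3 arrays that lack the spike-in signal 17 rose and 0 fell. The mean level over the 45 genes on the arrays was 1.03, 1.81, 0.95, 1.71 and 0.96 at 6 Gy and -0.63, -0.44, -0.10, -0.35 and -0.29 at 0 Gy, so replicates 2 and 4 were the highest of the irradiated group.

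The ISRE, searched as GAAA, any 2 bases and GAAA, on both strands with overlaps counted, stood in the windows of 3.99% of all 27025 genes, 4.1% of the 8815 tested genes with a window, and 14 of the 27 tested antiviral genes with one (51.9%). Of the 18 that rose and had a window, 7 held it (38.9%). Sequences from Ifit1, Ifit3 and Bst2 are printed because their windows hold pairs of matches, in capitals, that lie wholly before the start site; these 3 genes were picked for that after their values were seen.

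Ifit1: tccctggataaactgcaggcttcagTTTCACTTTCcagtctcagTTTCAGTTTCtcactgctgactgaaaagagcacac
Ifit3: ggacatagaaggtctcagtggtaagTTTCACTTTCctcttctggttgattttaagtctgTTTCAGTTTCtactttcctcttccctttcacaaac
Bst2: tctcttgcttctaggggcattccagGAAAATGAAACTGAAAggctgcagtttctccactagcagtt

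These windows (RefSeq, GRCm38.p6) are chr19:34640760-34640838 on the plus strand for Ifit1, chr19:34583348-34583441 on the plus strand for Ifit3 and chr8:71537562-71537627 on the minus strand for Bst2, where the 2 matches overlap. In Ifit1 and Ifit3 the matches are on the opposite strand. The printed stretch of Ifit3 is letter for letter the one of its neighbour Ifit3b, and probes of such near copies may share signal. Ifit1, an RNA-binding inhibitor of viral translation, rose by 2.45 (SE 0.35, adjusted p = 5.11e-05) and its paralog Ifit3 by 3.93 (SE 0.43, adjusted p = 2.77e-06). Bst2, tetherin, which holds budding virus at the cell surface, gave 0.57, 2.12, 1.52, 2.32 and 0.24 at 6 Gy and 0.14, 0.12, -1.38, 0.06 and 0.17 at 0 Gy. The lowest irradiated array was just above the highest sham array (log2 difference 1.53, SE 0.53, adjusted p = 0.0349), and the call held in 5 of 10 fits that left out 1 knockout array.

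Active oligoadenylate synthetases sense double-stranded RNA and start RNA decay. Of the 5 tested genes of the oligoadenylate synthetase family 4 rose, whereas Oas3 had a log2 difference of 0.12 (adjusted p = 0.841). Oasl1 (chr5:115387861-115387920, mm9) gave 3.78, 4.66, 3.88, 4.31 and 3.59 at 6 Gy and -0.49, 0.17, 0.59, -0.34 and 0.32 at 0 Gy. The lowest irradiated array lay far above the highest sham array (log2 difference 3.99, a 15.9-fold rise, SE 0.33, adjusted p = 1.32e-07). Oas2 gave 2.05, 3.21, 2.25, 3.09 and 1.65 at 6 Gy and -2.69, -2.87, -1.47, -2.46 and -1.49 at 0 Gy, where it was well above background on 1 of 5 arrays (log2 difference 4.65, SE 0.43, adjusted p = 4.2e-07). Oasl2 gave 0.26, 1.34, -0.07, 1.79 and -0.44 at 6 Gy and was at least 5.89-fold higher, with sham levels of -4.03 to -3.26 that were never well above background (adjusted p = 3.95e-05).

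Slfn4, a schlafen gene of myeloid cells, gave 2.15, 1.84, 0.68, 1.54 and 1.64 at 6 Gy and -3.94, -1.72, -1.58, -4.40 and -2.67 at 0 Gy, with 1 sham array well above background. The groups were apart (log2 difference 4.43, SE 0.54, adjusted p = 9.57e-06). Rtp4, a chaperone of receptors, gave 3.85, 4.70, 4.03, 4.51 and 4.35 at 6 Gy and 0.21, 1.14, 0.95, 0.44 and 0.93 at 0 Gy (log2 difference 3.55, SE 0.33, adjusted p = 4.38e-07). Cmpk2, a mitochondrial nucleotide kinase, had levels of -0.38 to 0.69 at 6 Gy and of -3.68 to -2.46 at 0 Gy, never well above background there, and rose at least 4.67-fold (adjusted p = 1.72e-06).

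Of 25 tested sensors and transcription factors of the pathway 6 rose and 2 fell, with a median of 0.18 and a share called not far from the 26.5% of all genes tested, and 1 rose and 1 fell without the 3 arrays that lack the spike-in signal. Irf7, the master regulator of type I interferon, gave 1.32, 2.85, 1.59, 2.74 and 1.22 at 6 Gy and -1.11, -0.63, 0.63, -0.29 and -0.88 at 0 Gy. Replicates 2 and 4 were again the highest, and the groups did not overlap (log2 difference 2.40, SE 0.52, adjusted p = 0.00193). Irf9, the DNA-binding partner of STAT proteins, rose by 1.35 (SE 0.24, adjusted p = 0.000371), and Ifih1, the sensor MDA5, by 1.69 (SE 0.35, adjusted p = 0.00134). Dhx58, the regulator LGP2, was at least 2.34-fold higher (0 Gy levels -3.10 to -1.82, 6 Gy levels -1.30 to 0.05; adjusted p = 0.00142).

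GTPases induced by interferon gamma, which attack the vacuoles of intracellular pathogens, had 6 rises and 1 fall among 14 tested members, and 6 rises and 0 falls without the array labelled knockout 6 Gy replicate 1. Gbp9 gave 2.86, 3.02, 2.98, 2.83 and 3.80 at 6 Gy and 1.33, 1.22, 1.61, 1.27 and 0.53 at 0 Gy. Replicate 5 was the highest and all irradiated arrays exceeded the sham arrays (log2 difference 1.90, SE 0.39, adjusted p = 0.00139). Irgm2 rose by 1.5 (SE 0.31, adjusted p = 0.00146) and Igtp by 1.13 (SE 0.26, adjusted p = 0.00337). Of 20 tested MHC class I and immunoproteasome genes 0 were called in either direction (limma), and their median was 0.16.

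**Figure D3:**
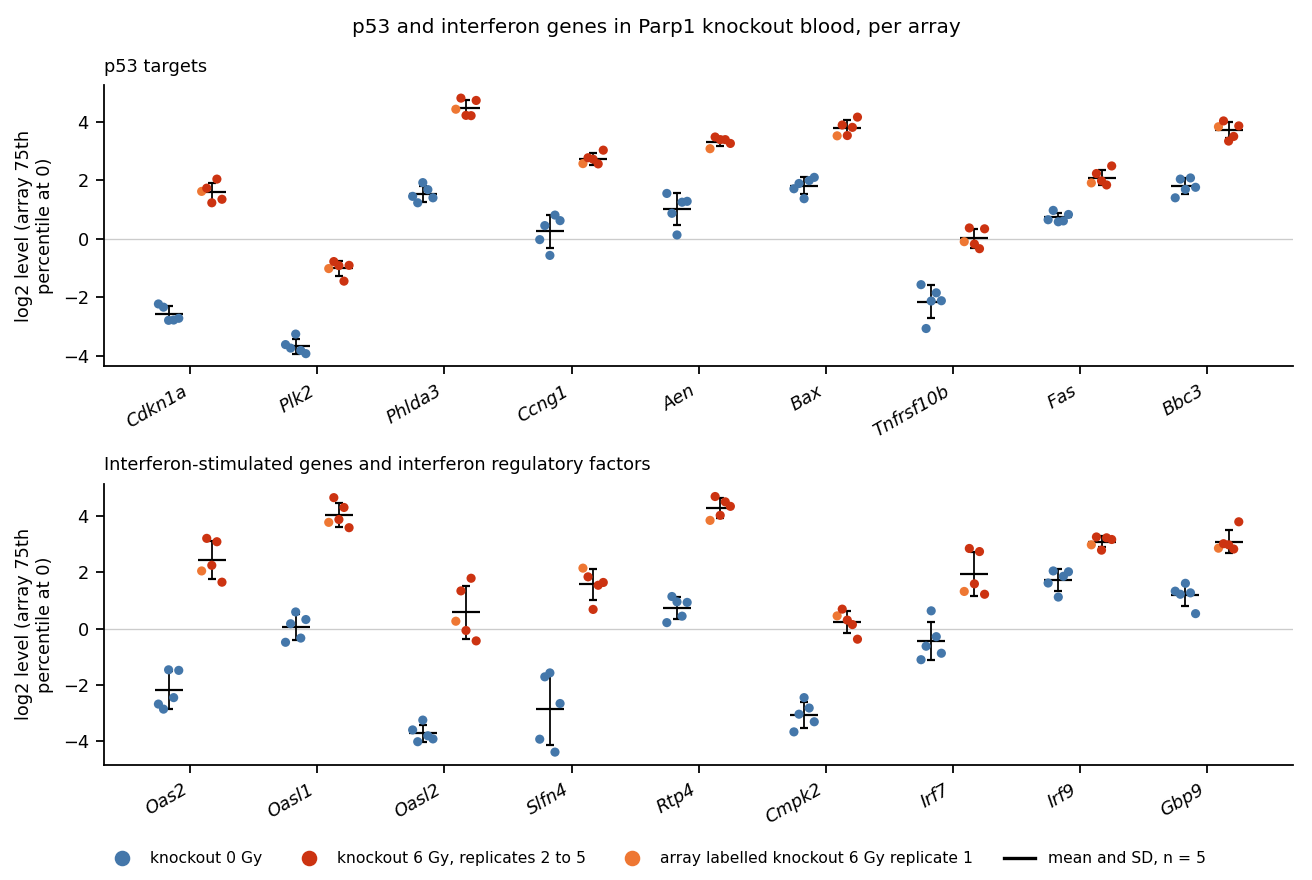
Log2 level (array 75th percentile at 0) of 9 p53 targets and 9 interferon genes on each knockout array, with the mean and SD of each group (n = 5); blue points are 0 Gy, red points 6 Gy and the orange point is the array labelled knockout 6 Gy replicate 1. All 18 genes have every 6 Gy point above every 0 Gy point, and the orange point lies within or beside the other 6 Gy points.

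B cell genes fell. Of 24 tested members of 32 listed, 17 fell and 1 rose, Btk, a kinase that myeloid cells also use (log2 difference 1.05, adjusted p = 0.00596), and the median was -2.10 against -0.11 for all genes tested. Without the array labelled knockout 6 Gy replicate 1, 15 fell and 1 rose, and without the 3 arrays that lack the spike-in signal 15 fell and 0 rose. Vpreb3 (chr10:75412326-75412385, mm9), a chaperone-like partner of the immunoglobulin light chain, gave -3.53, -2.02, -2.80, -3.46 and -2.74 at 6 Gy and 1.02, 1.64, 0.91, 2.07 and 1.77 at 0 Gy. It was well above background on all sham arrays and on 1 irradiated array (log2 difference -4.39, SE 0.38, adjusted p = 3.03e-07). Cd79a, a signalling chain of the B cell receptor, gave -0.19, -0.35, -0.78, -1.41 and -1.34 at 6 Gy and 0.36, 1.59, 0.62, 2.01 and 1.61 at 0 Gy (log2 difference -2.05, SE 0.29, adjusted p = 5.44e-05). The array's annotation places this probe at chr12:53180558-53180617 (mm9), and that position was not checked against the gene. Whether the probe reads Cd79a thus rests on the array's gene name alone. In both genes the groups did not overlap.

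MHC class II genes, which present antigen on B cells and other cells, had 4 falls and 0 rises among 10 tested members, and 3 falls without the array labelled knockout 6 Gy replicate 1. H2-Ob, a B cell regulator of peptide loading, gave -1.64, -1.10, -1.91, -1.32 and -1.34 at 6 Gy and -0.21, 0.99, 0.25, 1.34 and 1.01 at 0 Gy, without overlap (log2 difference -2.14, SE 0.24, adjusted p = 4.44e-06). Cd74, the invariant chain, gave 1.93, 2.53, 1.70, 3.15 and -0.78 at 6 Gy and 2.76, 3.18, 2.01, 4.05 and 3.93 at 0 Gy. The groups overlapped, and replicate 5 was far the lowest (log2 difference -1.48, SE 0.53, adjusted p = 0.0419; adjusted p = 0.0568 without the array labelled knockout 6 Gy replicate 1).

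T cell genes fell as well: 22 of 30 tested members fell and 0 rose, with a median of -1.39, and the counts were the same without the array labelled knockout 6 Gy replicate 1. Without the 3 arrays that lack the spike-in signal 13 fell. Thy1 (chr9:43856591-43856650, mm9), a surface glycoprotein of mouse T cells, gave 1.34, 2.26, 0.94, 1.30 and 1.81 at 6 Gy and 4.05, 4.96, 4.02, 5.45 and 5.36 at 0 Gy. The groups lay wide apart (log2 difference -3.24, a 9.43-fold fall, SE 0.31, adjusted p = 5.32e-07). Dapl1, a gene of naive T cells, gave -2.93, -0.73, -2.28, -1.70 and -1.42 at 6 Gy and 1.91, 2.97, 1.5, 3.28 and 3.38 at 0 Gy, the most negative difference in the T cell list (log2 difference -4.42, SE 0.39, adjusted p = 3.28e-07). Cd8a, the co-receptor of cytotoxic T cells, fell by 2.93 (SE 0.41, adjusted p = 4.1e-05) and was well above background on 1 irradiated array. Cd5, which dampens receptor signals, fell by 2.04 (SE 0.32, adjusted p = 0.000147).

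Of 19 tested genes of NK and cytotoxic cells 2 rose, Gzmb and Cma1, and 3 fell, with a median of -0.06 and a share called near the 26.5% of all genes tested; without the array labelled knockout 6 Gy replicate 1, 0 rose and 3 fell. Klrg1, an inhibitory receptor of effector NK and T cells, fell by 1.57 (SE 0.36, adjusted p = 0.00294). Of the 18 listed genes of basophils and mast cells 8 were tested, 2 fell, 2 rose and the median was 0.21 (26.5% of all genes tested were called). Fcer1a, the high-affinity IgE receptor chain, gave -4.17, -3.26, -3.68, -3.44 and -4.18 at 6 Gy and -0.52, -0.53, -0.75, -0.04 and -0.50 at 0 Gy. It was not well above background on any irradiated array and was at least 4.95-fold lower (adjusted p = 1e-05). Mcpt8, which encodes a protease of basophils, fell at least 3.62-fold (6 Gy levels -5.69 to -3.79, 0 Gy levels -1.90 to -0.25; adjusted p = 2.46e-05). The members that rose were Gata2, a transcription factor also of early progenitors (log2 difference 1.61, SE 0.38, adjusted p = 0.00338), and Hdc, which makes histamine (log2 difference 1.34, adjusted p = 0.00584). Of 12 tested eosinophil genes 2 rose and 0 fell, a share called below the 26.5% of all genes tested.

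Mature neutrophil and phagocyte genes rose. Of 32 tested genes of mature neutrophils 16 rose and 0 fell (15 without the array labelled knockout 6 Gy replicate 1, 10 without the 3 arrays that lack the spike-in signal), and their median was 1.06. Alox5ap, which feeds arachidonate to leukotriene synthesis, gave 6.92, 7.14, 6.72, 6.93 and 7.30 at 6 Gy and 5.53, 6.10, 6.05, 5.81 and 5.71 at 0 Gy, without overlap (log2 difference 1.16, SE 0.17, adjusted p = 6.42e-05). Slpi, a protease inhibitor, rose by 1.58 (SE 0.31, adjusted p = 0.000961) and Trem1, an amplifier of inflammatory signals, by 1.51 (SE 0.27, adjusted p = 0.000381). Granule protein genes, which are made early in the marrow, had 5 rises and 2 falls among 21 tested and a median of 0.63. Of all genes tested 12.9% rose and 13.6% fell. The falls were Ltf and Camp (log2 differences -1.74 and -1.5, limma adjusted p = 0.0273 and 0.0195), with overlapping groups. Among the rises, Anxa1, a regulator of leukocyte migration, gave 5.80, 5.89, 5.21, 5.64 and 6.22 at 6 Gy and 4.59, 4.1, 4.11, 3.82 and 3.96 at 0 Gy (log2 difference 1.64, SE 0.28, adjusted p = 0.000305).

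Of 23 tested genes of Fc receptors and phagocytosis 16 rose and 1, Cd36, fell, with a median of 0.96. The counts were the same without the array labelled knockout 6 Gy replicate 1, and 7 rose and 1 fell without the 3 arrays that lack the spike-in signal. Lamp2 (chrX:35777505-35777564, mm9), a membrane protein of lysosomes, gave 3.99, 3.98, 3.77, 3.79 and 3.86 at 6 Gy and 2.58, 1.77, 1.97, 2.37 and 2.29 at 0 Gy. The irradiated arrays agreed within 0.11 (SD) and exceeded all sham arrays (log2 difference 1.68, SE 0.20, adjusted p = 6.04e-06). Clec7a, the fungal receptor dectin-1, rose by 1.62 (SE 0.26, adjusted p = 0.00019). Cd36, a scavenger receptor that maturing red cells and platelets also carry, gave 0.93, 0.51, 0.88, 0.79 and -0.21 at 6 Gy and 1.78, 1.59, 4.09, 3.22 and 2.56 at 0 Gy (log2 difference -2.07, SE 0.43, adjusted p = 0.00153).

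Of 27 tested monocyte genes 2 rose and 5 fell, with a median of 0.15, so the share called was near the 26.5% of all genes tested. Irf8, a regulator of monocyte fate, fell by 1.45 (SE 0.31, adjusted p = 0.00189) with overlapping groups. Cd300e, a receptor of non-classical monocytes, fell by 2.10 (SE 0.49, adjusted p = 0.00349), also with overlapping groups. Cd14, a co-receptor for endotoxin, gave 1.92, 2.06, 2.17, 3.10 and 2.01 at 6 Gy and 1.45, 0.19, 1.79, 0.47 and 0.58 at 0 Gy, where the groups nearly touch (log2 difference 1.36, SE 0.36, adjusted p = 0.0078).

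Genes of tissue macrophages had 7 rises and 0 falls among 13 tested of 20 listed, 6 without the array labelled knockout 6 Gy replicate 1 and 1 without the 3 arrays that lack the spike-in signal. Of the 20, 6 to 13 were well above background on the 0 Gy arrays and 12 to 17 on the 6 Gy arrays. Some, Marco among them, were thus tested only through the irradiated group. The mean level of the 20 markers was 0.18, 0.47, 0.60, 1.70 and -1.63 at 6 Gy and -0.36, -2.44, -1.09, -1.97 and -0.91 at 0 Gy. Replicate 5, the only irradiated array on slide 9, lay among the sham arrays (difference of means 1.62, two-sided exact permutation p = 0.0476, adjusted p = 0.127 over 8 measures). Marco, a scavenger receptor, gave -0.72, 0.08, 0.36, 2.42 and -1.67 at 6 Gy and -1.90, -2.69, -1.94, -2.63 and -1.98 at 0 Gy (log2 difference 2.33, SE 0.63, adjusted p = 0.00885). Slc40a1, the iron exporter ferroportin, rose by 1.47 (SE 0.29, adjusted p = 0.000996). C1qc and Vsig4, of complement initiation and complement clearance, were called with overlapping groups (adjusted p = 0.028 and 0.0486), and Vsig4 was not called without the array labelled knockout 6 Gy replicate 1 (adjusted p = 0.0841).

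Among acute-phase genes 4 of 7 tested rose, 3 without the array labelled knockout 6 Gy replicate 1 and 1 without the 3 arrays that lack the spike-in signal. Saa3, a serum amyloid A made by macrophages and other cells, gave 3.51, 6.95, 5.56, 7.55 and 3.10 at 6 Gy and 1.58, -4.05, 0.75, -0.14 and 1.92 at 0 Gy. The spread was wide, yet every irradiated array exceeded every sham array (log2 difference 5.32, SE 1.15, adjusted p = 0.00196). Saa1, the liver's serum amyloid A, gave 7.64, 5.57, 8.91, 8.66 and 2.74 at 6 Gy and 7.27, 1.21, 3.07, 2.14 and 2.45 at 0 Gy. It was high on the sham array with the highest liver-marker level, replicate 1, and the groups overlapped (log2 difference 3.48, SE 1.29, adjusted p = 0.0494; adjusted p = 0.0934 without the array labelled knockout 6 Gy replicate 1), and within slide 9 the difference was -1.5.

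Cytokines and chemokines had 8 rises and 0 falls among 16 tested of 32 listed (7 without the array labelled knockout 6 Gy replicate 1). Il1b, a driver of fever and inflammation, gave 5.16, 5.09, 4.79, 4.37 and 5.63 at 6 Gy and 3.93, 3.34, 4.03, 2.95 and 3.15 at 0 Gy (log2 difference 1.53, SE 0.31, adjusted p = 0.00125). Il15, a growth factor for NK and memory T cells, rose by 1.99 (SE 0.46, adjusted p = 0.0032), and Tnfsf13b, the B cell survival factor BAFF, by 1.71 (SE 0.34, adjusted p = 0.00106), from 1 sham array well above background to 5 irradiated ones. Of 21 tested Toll-like receptor genes and adaptors 7 rose and 1 fell (12.9% of all genes tested rose and 13.6% fell). Myd88, the main adaptor, gave 2.73, 2.72, 2.38, 2.29 and 3.52 at 6 Gy and 1.83, 1.97, 1.46, 1.35 and 1.43 at 0 Gy (log2 difference 1.12, SE 0.21, adjusted p = 0.000724). Of 23 tested NF-kappaB genes 1 rose and 2 fell, a share called below the 26.5% of all genes tested.

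Platelet genes rose, with 19 rises and 0 falls among 32 tested of 33 listed and a median of 1.18. In 24 of them every irradiated array lay above every sham array (background 9.53%). Without the array labelled knockout 6 Gy replicate 1, 18 rose, and without the 3 arrays that lack the spike-in signal 11 rose. Tbxas1 (chr6:39034356-39034415, mm9), thromboxane synthase, gave 4.25, 4.68, 3.72, 4.14 and 4.67 at 6 Gy and 2.48, 2.43, 2.69, 2.36 and 1.83 at 0 Gy (log2 difference 1.93, SE 0.30, adjusted p = 0.000118). Ptgs1, the cyclooxygenase upstream of it, gave 3.5, 4.34, 3.42, 4.15 and 3.61 at 6 Gy and 2.23, 1.45, 2.78, 2.48 and 2.70 at 0 Gy, also without overlap (log2 difference 1.47, SE 0.27, adjusted p = 0.000565).

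Tmem40, a membrane protein of platelets, rose by 1.79 (SE 0.36, adjusted p = 0.00106), and F5, coagulation factor V, by 0.89 (SE 0.19, adjusted p = 0.00196). Treml1, a granule receptor, rose by 1.04 with all arrays (SE 0.38, adjusted p = 0.0492) and was not called without the array labelled knockout 6 Gy replicate 1 (adjusted p = 0.0608). The list median was 1.75 within slide 9.

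Genes of maturing red cells fell. Of 23 tested genes of the red-cell membrane 13 fell and 2 rose, Gypc and Cd44, and of 26 tested genes of reticulocyte maturation 20 fell and 1 rose, Alox15, a lipoxygenase that eosinophils also make (median -1.72 and -1.51). Without the array labelled knockout 6 Gy replicate 1, 13 and 19 fell, and without the 3 arrays that lack the spike-in signal 10 and 12 fell. Slc4a1, the anion exchanger band 3, gave 5.67, 5.41, 4.79, 5.36 and 4.53 at 6 Gy and 7.22, 6.82, 10.11, 8.67 and 8.10 at 0 Gy. Irradiated arrays lay close together, whereas sham arrays were spread, with replicate 3 highest (log2 difference -3.03, SE 0.53, adjusted p = 0.000369).

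Epb42, protein 4.2, fell by 2.95 (SE 0.48, adjusted p = 0.000197). Trim10 and Rnf123, ubiquitin ligase genes of the reticulocyte list, fell by 2.59 and 2.35 (adjusted p = 0.000471 and 0.000119). Of 23 tested genes of heme synthesis and globin handling 8 fell and 0 rose. Ahsp, the chaperone of alpha globin, gave 4.75, 4.68, 4.64, 4.66 and 4.12 at 6 Gy and 7.24, 5.97, 9.63, 8.12 and 7.62 at 0 Gy, without overlap (log2 difference -3.15, SE 0.59, adjusted p = 0.000644). Urod, an enzyme of heme synthesis, fell by 2.43 (SE 0.41, adjusted p = 0.000244). Among the sham arrays, replicate 3 was the highest and replicate 2 the lowest for Ahsp.

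Transcription factors of erythroid, megakaryocyte and progenitor cells moved in both directions: 8 of 19 tested rose and 4 fell, with the same counts without the array labelled knockout 6 Gy replicate 1. Gfi1b, a repressor that red-cell and platelet precursors need, gave 3.16, 3.29, 2.73, 2.89 and 3.60 at 6 Gy and 0.89, 1.17, 1.42, 1.10 and 0.62 at 0 Gy (log2 difference 2.09, SE 0.36, adjusted p = 0.000302). Epor, the erythropoietin receptor, gave 2.61, 3.03, 2.03, 2.11 and 2.63 at 6 Gy and 0.39, 0.06, 0.92, 0.46 and -0.37 at 0 Gy (log2 difference 2.19, SE 0.35, adjusted p = 0.000163). In both, every irradiated array exceeded every sham array.

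Meis1 (chr11:18780695-18780754, mm9), a homeobox gene of stem cells and megakaryocytes, gave 1.68, 1.71, 1.35, 1.48 and 2.19 at 6 Gy and -0.58, -0.16, -1.14, -0.79 and -1.64 at 0 Gy, where 3 arrays were well above background (log2 difference 2.54, SE 0.37, adjusted p = 6.08e-05). Nfe2, which drives platelet release, rose by 1.56 (SE 0.29, adjusted p = 0.000644). The members that fell were Zfpm1, Lmo2, Bcl11a and E2f2, with log2 differences of -1.80, -1.22, -1.64 and -2.21.

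**Figure D4:**
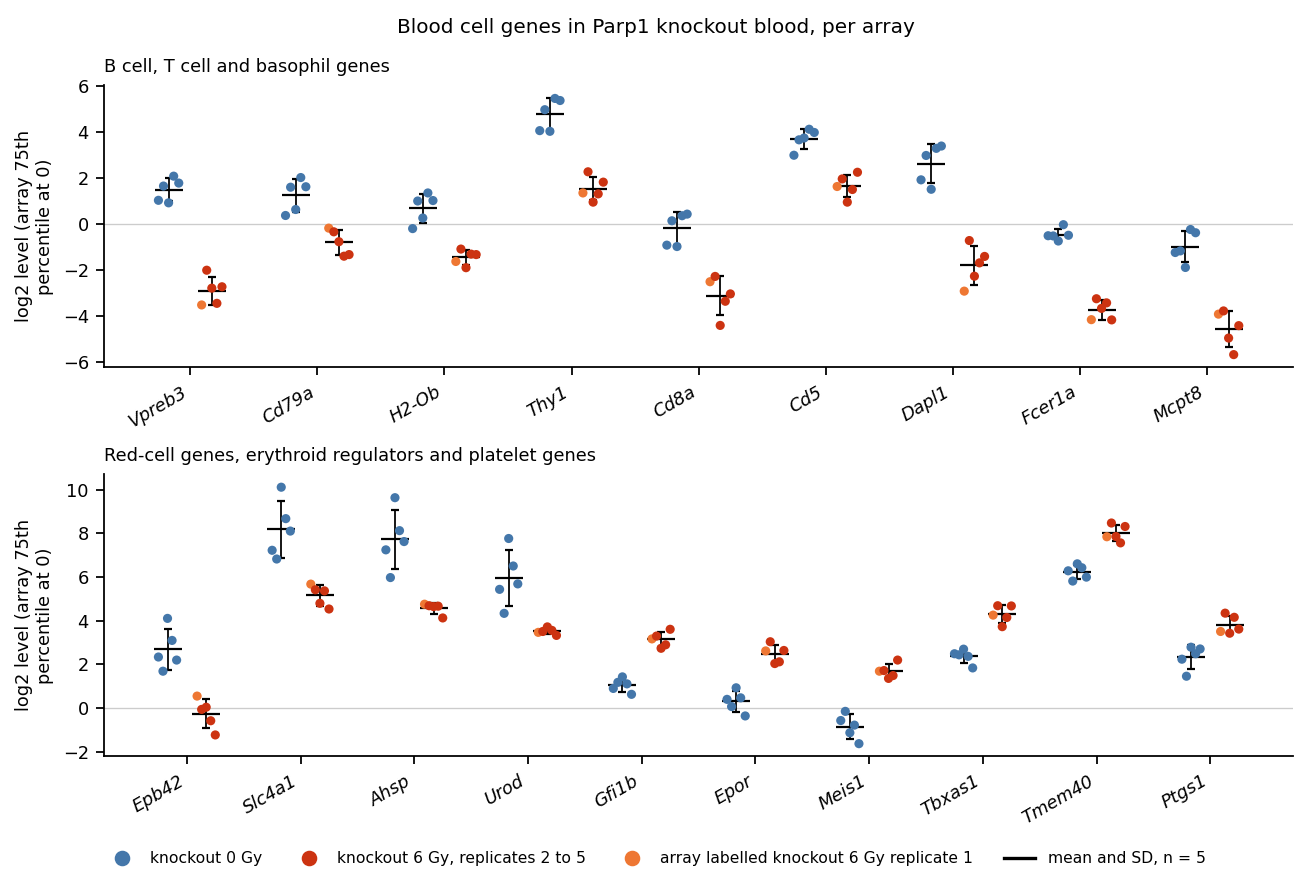
Log2 level (array 75th percentile at 0) of lymphocyte and basophil genes (top) and of red-cell, erythroid regulator and platelet genes (bottom) on each knockout array, with the mean and SD of each group (n = 5); blue points are 0 Gy, red 6 Gy and orange the array labelled knockout 6 Gy replicate 1. All genes of the top panel are lower at 6 Gy without overlap, and in the bottom panel Epb42 to Urod are lower and Gfi1b to Ptgs1 higher.

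Of 19 tested PARP family genes and genes that remove ADP-ribose 6 rose and 2 fell (12.9% of all genes tested rose and 13.6% fell). Among those that rose were Parp9 and Parp14, which interferon induces (log2 differences 1.18 and 0.95). Parp3, a PARP that answers double-strand breaks (chr9:106372743-106372802, mm9), gave -2.77, -1.92, -3.62, -2.15 and -2.88 at 6 Gy and -2.04, -1.12, -0.88, -1.06 and -1.06 at 0 Gy. Sham replicate 1 lay below irradiated replicate 2, so the groups overlapped, and the probe was well above background on 2 irradiated and 4 sham arrays (log2 difference -1.44, SE 0.27, adjusted p = 0.000769). Aplf, which binds ADP-ribose chains and helps end joining, gave 1.36, 1.18, 0.85, 1.20 and 1.88 at 6 Gy and -0.03, -0.40, -0.11, -0.31 and -0.50 at 0 Gy, without overlap (log2 difference 1.57, SE 0.36, adjusted p = 0.00299). Adprh, which cuts ADP-ribose from arginine, rose by 0.82 (SE 0.21, adjusted p = 0.00597).

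Of 17 tested genes of NAD metabolism and sirtuins, the NAD-dependent deacylases, 4 rose and 0 fell, a share called near the 26.5% of all genes tested. Sirt5 (chr13:43490351-43490410, mm9), a mitochondrial desuccinylase, gave -0.51, -0.57, -0.10, -0.53 and -0.36 at 6 Gy and -0.93, -1.75, -3.08, -2.13 and -2.62 at 0 Gy, where 2 arrays were well above background (log2 difference 1.69, SE 0.30, adjusted p = 0.00035). Sirt3, the main mitochondrial deacetylase, gave 3.84, 3.76, 4.11, 3.68 and 4.40 at 6 Gy and 3.58, 2.17, 2.51, 2.39 and 2.13 at 0 Gy. Sham replicate 1 stood just under the irradiated arrays (log2 difference 1.40, SE 0.26, adjusted p = 0.000599).

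DNA repair genes outside the p53 lists changed singly, and their counts stand against the 26.5% of all genes tested that were called. Base excision and single-strand break repair, the pathway in which PARP1 acts, had 1 rise and 2 falls among 17 tested, and Ung, which removes uracil from DNA, fell by 1.47 (SE 0.37, adjusted p = 0.00566). End joining had 3 rises and 1 fall among 11 tested. The fall was Xrcc6, the Ku70 subunit that caps broken ends, with 0.71, 0.63, 0.69, 0.67 and 0.76 at 6 Gy and 1.48, 1.38, 1.49, 1.62 and 1.56 at 0 Gy. This was a small difference with very little spread (log2 difference -0.81, SE 0.15, adjusted p = 0.000601). Recombination and checkpoint genes had 2 rises and 1 fall among 15 tested of 29 listed.

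Chek2, a checkpoint kinase, was at least 1.29-fold higher (6 Gy levels -2.23 to -1.08, 0 Gy levels -3.52 to -2.71; adjusted p = 0.00185), and Rad51d, a gene of recombination repair, at least 1.23-fold higher (6 Gy levels -2.16 to -1.19, 0 Gy levels -3.99 to -2.35; adjusted p = 0.000172). Both adjusted p are for the measured log2 differences, 1.48 for Chek2 and 1.75 for Rad51d. The measured difference of Rad51d changed sign, to -0.02, under the normexp background correction. Rad51c, of the same family, fell by 1.56 (SE 0.35, adjusted p = 0.00255).

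Proliferation genes that were called mostly fell, and many members of these lists were too dim to test. Of 30 mitotic genes 14 were tested, 6 fell and 2 rose (5 and 0 without the array labelled knockout 6 Gy replicate 1). Nusap1, of the spindle, gave 1.36, 1.08, 0.00, 0.13 and -0.10 at 6 Gy and 2.75, 2.64, 4.67, 3.53 and 2.83 at 0 Gy (log2 difference -2.79, SE 0.41, adjusted p = 7.17e-05). Ube2c and Ccnb2, a ubiquitin enzyme and a cyclin of mitosis, fell by 2.18 and 1.79 (adjusted p = 0.000803 and 0.00207). In all 3, sham replicate 3 was the highest array, as it was for the red-cell genes. Of 20 tested replication genes 8 fell and 1 rose; Mcm5, of the replicative helicase, fell by 1.20 (SE 0.28, adjusted p = 0.00297) with overlapping groups, and Rrm2, a ribonucleotide reductase subunit, rose by 1.0 (SE 0.28, adjusted p = 0.0114).

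Of 22 tested chaperone genes 11 fell and 2 rose (9 and 2 without the array labelled knockout 6 Gy replicate 1). Hsph1, a nucleotide exchange factor of HSP70, gave 1.32, 1.10, 1.38, 1.0 and 1.56 at 6 Gy and 3.64, 3.45, 2.38, 4.07 and 4.07 at 0 Gy, without overlap (log2 difference -2.25, SE 0.31, adjusted p = 3.4e-05). Hsp90ab1 fell by 1.38 (SE 0.22, adjusted p = 0.00014). Among 24 tested antioxidant genes 7 fell and 4 rose (13.6% of all genes tested fell and 12.9% rose). Gpx1, a peroxidase abundant in red cells, fell by 1.98 (SE 0.35, adjusted p = 0.000371) and Nqo1, a quinone reductase, by 2.44 (SE 0.39, adjusted p = 0.000174). Nfe2l2, the regulator NRF2 that induces Nqo1, rose by 0.93 (SE 0.19, adjusted p = 0.00128).

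Cytosolic ribosomal protein genes had 25 falls and 0 rises among 47 tested, and 16 falls without the array labelled knockout 6 Gy replicate 1, a change of more than 1.5 times. Their median was -0.62 with the 75th percentile as reference and -0.05 under the normexp correction. Rpl8 fell by 0.94 (SE 0.20, adjusted p = 0.00155). Of 45 tested genes of oxidative phosphorylation 9 fell and 0 rose (13.6% of all genes tested fell). Their median was -0.33, or 0.17 under the normexp correction, where it changed sign. Cox7a2, a cytochrome oxidase subunit, fell by 1.88 (SE 0.32, adjusted p = 0.00025) and Atp5b, of ATP synthase, by 1.38 (SE 0.29, adjusted p = 0.00179). Of 31 tested proteasome genes 2 rose and 2 fell, a share called below the 26.5% of all genes tested.

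Outside the lists, Tmem35a, a chaperone of nicotinic receptors, gave 0.38, 0.45, -0.10, -0.42 and 0.98 at 6 Gy and rose at least 4.73-fold (adjusted p = 5.51e-06), with sham levels of -4.55 to -2.99 that were never well above background. Apol10a, of the apolipoprotein L family, gave -1.86, -1.24, -2.74, -1.92 and -2.08 at 6 Gy and 0.79, 0.69, 3.28, 2.63 and 2.68 at 0 Gy (log2 difference -3.98, SE 0.57, adjusted p = 5.44e-05). Nacad gave -4.08, -3.39, -4.42, -5.79 and -4.60 at 6 Gy, none well above background, and -1.36, -2.54, 1.01, -0.92 and -0.55 at 0 Gy (at least 3.94-fold lower, adjusted p = 0.000163).

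The same dose in wild-type blood called 3270 genes of this table (23.5%), 1796 higher (12.9%) and 1474 lower (10.6%). The knockout and wild-type comparisons share no arrays, and the difference between the responses was tested as an interaction. Of the 13887 genes 800 differed (5.76%), 124 with the knockout response higher (0.893%) and 676 with it lower (4.87%), so most differences were of 1 sign. The knockout response was the lower one for 394 of 4196 genes under median centring, where most differences had the opposite sign, and for 1050 of 1205 with the percentile over probes detected on all arrays, 533 of 793 under quantile normalisation and 430 of 729 in the authors' deposited table. Without the array labelled knockout 6 Gy replicate 1, 954 differed (6.87%), 113 higher (0.814%) and 841 lower (6.06%).

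This count hung on single arrays. It was 113, 142, 20 and 1499 without knockout 6 Gy replicates 2, 3, 4 and 5, and 1477, 486, 25, 324 and 197 without knockout 0 Gy replicates 1 to 5. It was 27, 324 and 219 without wild-type 0 Gy replicates 1, 3 and 5, and 136, 22, 23 and 1360 without wild-type 6 Gy replicates 1, 2, 3 and 5, while the remaining arrays moved it by less than 1.5 times. It was 0 without the 3 arrays that lack the spike-in signal, where 0 is limma's count, against 3417 genes at an unadjusted p under 0.05 with all arrays. That fit keeps only knockout 6 Gy replicates 1 and 5. The mean level of probes never well above background was lower at 6 Gy than at 0 Gy in the knockout (-4.6 and -3.82) and higher in wild type (-3.92 and -4.89), and the part of this in the interaction was not tested.

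In 29 of the 44 lists no tested member differed between the genotypes. None of the tested B cell, T cell, platelet, red-cell membrane, reticulocyte, mature neutrophil, p53 arrest or antiviral genes differed, with smallest adjusted p of 0.0742, 0.0502, 0.0698, 0.0861, 0.163, 0.143, 0.143 and 0.0817. This does not show that the responses were alike. In wild type 15 B cell genes fell, 22 T cell genes fell, 5 platelet genes rose, 13 red-cell membrane genes fell and 27 antiviral genes rose, against 17, 22, 19, 13 and 27 in the knockout. The platelet median was 0.56 in wild type and 1.18 in the knockout.

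Single genes of the other 15 lists differed, 1 in the p53 death, chaperone, cytokine, NF-kappaB, base excision, mitotic, replication, lung and skeletal muscle lists each and 2 in the recombination list, besides those named next. Lamp2 rose by 1.68 in the knockout and by 0.57 in wild type (difference 1.11, SE 0.28, adjusted p = 0.0342), and Sirt5 by 1.69 against a wild-type difference of 0.13 (difference 1.55, SE 0.42, adjusted p = 0.0389). Nfe2l2 differed by 0.94 (SE 0.27, adjusted p = 0.0441) and Parp3 by -1.46 (SE 0.39, adjusted p = 0.0386), with wild-type differences of -0.01 and 0.02. Meis1 differed by 1.77 (SE 0.52, adjusted p = 0.0478) and was not called without the array labelled knockout 6 Gy replicate 1 (adjusted p = 0.0529). Over 20 fits that each left out 1 array of the 4 groups, these 5 calls held in 10, 9, 6, 8 and 2.

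The 6 genes with the smallest adjusted p for this difference all rose in wild type and fell or did not pass the test in the knockout, and all 6 held in 20 of 20 such fits. As they were picked for that adjusted p, this stability was largely set by the choice. The filter asked for detection in a knockout group and not in wild type. No gene, these 6 included, was called for this difference without the 3 arrays that lack the spike-in signal, or under the normexp correction. Olfr1347, an olfactory receptor gene, gave -1.53, -1.52, -2.17, -1.66 and -1.72 at 6 Gy and -1.03, -0.97, 0.35, -0.73 and -0.75 at 0 Gy in the knockout and rose by 1.07 in wild type (difference -2.16, SE 0.33, adjusted p = 0.013). Icmt, which methylates prenylated proteins, differed by -1.94 (SE 0.33, adjusted p = 0.0176), with a fall of 0.93 in the knockout and a rise of 1.01 in wild type. Radil, an effector of the GTPase RAP1, differed by -3.09, Sv2c, of synaptic vesicles, by -2.70, V1ra8, a pheromone receptor gene, by -3.27 and Efs, an adaptor of SRC kinases, by -2.80 (adjusted p = 0.0176, 0.0176, 0.0176 and 0.0183). Their mean levels on wild-type sham arrays were between -3.27 (Radil) and -0.26 (Icmt), and each was below the mean level of the same probe on knockout sham arrays.

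Against the wild-type response to 8.8 Gy, the equally lethal dose by the design, 0 genes differed from the knockout response to 6 Gy with limma, with and without the array labelled knockout 6 Gy replicate 1. Under the normexp correction 6217 genes differed. At an unadjusted p under 0.05 the counts without that correction were 1571 (11.3%) and 1964 (14.1%) genes. The near equality of the array labelled knockout 6 Gy replicate 1 with wild-type 8.8 Gy replicate 2 bears on this comparison on both sides, and 0 genes were called without either of these 2 and wild-type 8.8 Gy replicate 4.

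**Figure D5:**
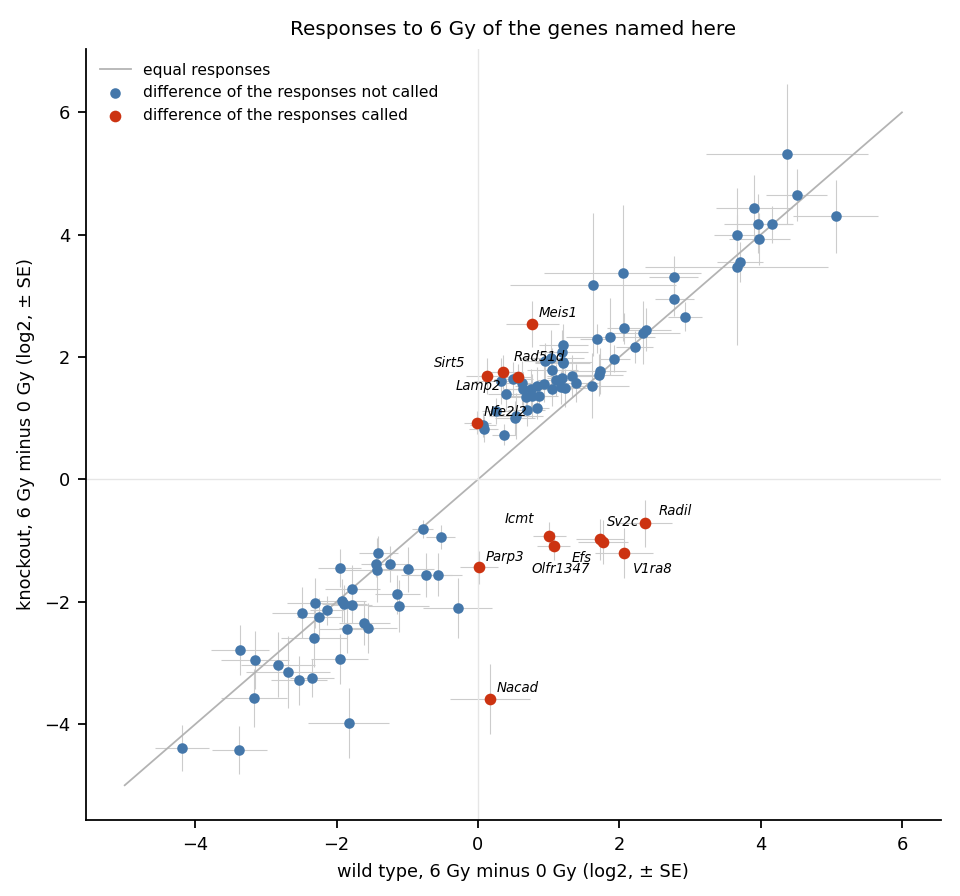
Log2 difference between 6 Gy and 0 Gy in the knockout (vertical) against that in wild type (horizontal) for the genes named here, with SE bars; red points are genes whose responses differed (adjusted p under 0.05) and the line marks equal responses. Genes were chosen mainly for their knockout response or for this difference, so the scatter is a description; Olfr1347, Icmt, Radil, Sv2c, V1ra8 and Efs lie at the lower right and Nacad lies lowest of the red points.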

How the data were processed

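Each array has a deposited scanner file of linear spot intensities, made with Agilent Feature Extraction 11.5.1 per the file headers and the submitters' processing notes, which subtracts background and does not normalise between arrays. Of 44397 spots 43020 are not controls. The log2 processed signal minus each array's 75th percentile was averaged over the spots of a probe (39429 probes). The brightest probe stood for each of 30199 gene names, and 13887 names passed the filter (4 or more arrays of either knockout group well above background); 10386 of them matched a RefSeq symbol. Of 2446 names with several tested probes, 13 had probes called in opposite directions, none of them named in the text.

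Groups were compared with limma 3.58.1 (R 4.3.3), fitting 5 group means by lmFit and moderating with eBayes over all 24 arrays, two-sided, with Benjamini-Hochberg adjustment over the table, and it was tested on simulated data. SE is the moderated standard error. Each array is 1 mouse, and the number of arrays limits the precision. Array measures were compared with exact permutation tests. Alternatives covered left-out arrays, other centrings, the normexp correction (offset 50), the filter, slide, scan day, probe averaging and the deposited table.

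Named genes are Parp1 and Siglecf; the 6 largest rises and 6 largest falls called with and without the array labelled knockout 6 Gy replicate 1 whose groups do not overlap; per list, up to 4 called members with the smallest adjusted p without that array and up to 2 that lose the call; the 6 genes with the smallest adjusted p for the response difference; and from a list without calls its brightest member. Of these a selection is printed, and some genes are not reported here. Mdm2, Ifit1, Ifit3, Bst2 and the genes named to complete a count or a group (Rsad2, Hdc, Oas3, Btk, Gzmb, Cma1, Ltf, Camp, Gypc, Cd44, Alox15, Parp9, Parp14, Zfpm1, Lmo2, Bcl11a, E2f2) were chosen after their values were seen. The members and lists were chosen with earlier results of these data known.

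The authors deposited a log2 table, in which 99.4 to 99.9% of values per array lay within 0.05 of the scanner log2 value plus 1 constant per array, which settled its scale and direction; how the constants were chosen stays unknown. Its column medians were 8.09, 7.66, 8.01, 7.69 and 7.63 for knockout 0 Gy, 7.83, 7.70, 8.06, 7.88 and 7.86 for knockout 6 Gy, and, in wild type, 7.94, 7.68, 7.73, 7.66 and 7.80 (sham), 7.75, 7.86, 7.76, 7.65 and 7.70 (irradiated with 6 Gy), 7.71, 7.85, 8.04 and 7.97 (8.8 Gy). No genome was used, and promoter sequences and symbols are RefSeq's for GRCm38.p6.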

Additional observations from a re-analysis of the deposited data

Results flagged for a closer look

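An array far from the rest of its group was found in 17 of 236 groups checked (7.2%, where chance gives about 5%, or about 1 in 20). The number given for each is the gap to the nearest array over the range of the group.

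Of the knockout 0 Gy arrays, replicate 1 stood apart for Bad (gap 0.754, level 1.87), F5 (0.873, level 3.40), Parp3 (0.792, level -2.04), Sirt3 (0.743, level 3.58) and Rrm2 (0.771, level -1.0). Replicate 3 stood apart for Bst2 (0.927, level -1.38), Olfr1347 (0.78, level 0.35), Radil (0.749, level -0.58), V1ra8 (0.899, level 0.69) and the heart-muscle marker level (0.778, level -2.34).

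Of the knockout 6 Gy arrays, replicate 5 stood apart for Gbp9 (0.808, level 3.80), Ahsp (0.83, level 4.12) and Icmt (0.762, level 0.93), replicate 4 for Cd14 (0.786, level 3.10) and Slc40a1 (0.772, level 2.94), and replicate 3 for Tnfsf13b (0.718, level -0.92) and the heart-muscle marker level (0.796, level 2.07). The last is a mean over 20 markers of which 17 were well above background there, and at most 9 on any other knockout array.

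Between knockout and wild type, the response to 6 Gy differed, by the test of the interaction, for Lamp2 (1.11), Meis1 (1.77), Nfe2l2 (0.94), Sirt5 (1.55) and Rad51d (1.40), all with the knockout response higher on the log2 scale, and for Parp3 (-1.46), Nacad (-3.76), Olfr1347 (-2.16), Icmt (-1.94), Radil (-3.09), Sv2c (-2.70), V1ra8 (-3.27) and Efs (-2.80), all with it lower. Rad51d and Nacad were not well above background in 1 of the knockout groups, so their sizes give the direction only. Their calls held in 6 and 15 of 20 fits that left out 1 array.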

How the results depend on the processing

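The number of genes called in the knockout response lay between 2917 and 4048 when each array of the 24 was left out in turn, with 1379 to 1857 higher and 1378 to 2259 lower; the count that differed from wild type at 6 Gy lay between 20 and 1499, and that against wild type at 8.8 Gy was 0 each time. With the slide as a fixed block 73 genes were called (44 higher, 29 lower; 1 and 1 differed from wild type at 6 and 8.8 Gy), and with scan day 80 (46 higher, 34 lower; 3 and 3); both rest on slide 9. Without the 3 arrays that lack the spike-in signal, an alternative added after the data were seen, as was the averaging below, 1900 were called (985 higher, 915 lower), and 0 differed from wild type at 6 Gy. That fit keeps only replicates 1 and 5 of knockout 6 Gy, and replicate 1 is the array that stood apart. The deposited table called 924 of 8494 genes lower, and 64.3% of its calls were higher against 48.7% with the scanner values and 60.3% with the slide block. Under normexp, which raised the median on 11 of 24 arrays, 1253 were lower and 0 and 6217 differed from wild type at 6 and 8.8 Gy. The count that differed at 6 Gy was 1205 with the percentile over probes detected on all arrays, 4196 with median centring, 10294 with no filter, 354 with probes well above background on all 10 knockout arrays, 18 with slide as a random block and 297 with knockout 0 Gy replicates 4 and 5 averaged. In the knockout response that averaging called 2945 genes (1542 higher, 1403 lower). A fit of only the 10 knockout arrays called 2827 (1543 higher, 1284 lower).

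With the replicate number as a block 3241 genes were called (1624 higher, 1617 lower) and 22 differed from wild type at 6 Gy. Same-numbered knockout arrays correlated at -0.0372, 0.0774, -0.302, -0.106 and -0.109, so the numbers give no pairing, and no array correlated best with its own number.

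The share of probes well above background differed by 7.09 to 9.76 percentage points and the level of probes never well above background by -0.887 to -0.621 when 1 knockout array was left out. Of 101 genes named for the knockout response, which leave out those named to complete a count, 95 were called in every such fit. The others were Bst2, Cd74, Saa1, C1qc, Vsig4 and Treml1. All 101 were called with all arrays and most were picked for a small adjusted p, so this stability was largely set by the choice. Without the 3 arrays that lack the spike-in signal 16 of the 101 lost the call, and under normexp 12 lost it with the same sign. Of the genes named to complete a count, Gzmb and Cma1 lost the call without the array labelled knockout 6 Gy replicate 1 (adjusted p = 0.089 and 0.128). Signs changed for Saa1 (-1.5 with slide or scan day as a block) and, under normexp, for Rad51d (-0.02) and its response difference (-0.12). The cause of these changes was not tested. Dim probes, such as those of Rad51d, Chek2 and Plk2 at 0 Gy, give only bounds, and slide, scan day and dose cannot be told apart outside slide 9.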
